A study of Mus musculus with 5 samples.

Results

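Transcripts by which mast cells are commonly recognised were followed in RNA of cells sorted from mouse mammary tumours, with and without regulatory T (Treg) cells. The 10 genes, of 46983 listed in the count tables, were Cpa3, Mcpt4, Cma1, Tpsb2 and Tpsab1 (proteases), Kit, Ms4a2 and Fcer1a (receptors), Hdc (histamine synthesis) and Gata2 (a transcription factor). They were chosen by their counts in these libraries, Treg-ablated against control, so that their differences between the groups are given as a description. How many of them passed the threshold of the fit over all genes is given beside the share of all genes and is not read as a test of them.

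Mast cells are tissue-resident granulocytes that carry IgE on the high-affinity receptor FcεRI and depend on stem cell factor, the ligand of the receptor tyrosine kinase KIT. Their granules hold histamine and proteases bound to serglycin proteoglycan, which are released when IgE is crosslinked. Connective tissue mast cells of the mouse make chymases, tryptases and carboxypeptidase A3 together, and they lie along vessels and at the borders of tumours.

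The tumours were orthotopic EO771 tumours, a mouse mammary carcinoma line implanted in mice labelled C57/BL6. In the Treg-ablated group (2 libraries) the mice had been given diphtheria toxin in 2 doses of 50 µg per kg, and the sort followed on day 4, whereas the 3 control libraries came from untreated tumours. An effect of the toxin and an effect of Treg loss therefore cannot be told apart, and the allele that makes Treg cells sensitive to the toxin is not given in the sources used here. The sort gate in the labels was CD45+ CD11b+ Ly6G- F4/80+, which is meant to hold tumour-associated macrophages. The labels do not say whether libraries stand for separate animals or for pools, so p-values rest only on how these 5 libraries vary, which may be technical variation.

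Library totals ran from 13122668 to 20156835 counts, and 3 counts corresponded to between 0.15 and 0.226 CPM, which are counts scaled to a common library size of 1e+06. The gate was not visible as a macrophage profile: the collagen gene Col1a1 had 464.1 to 760.4 CPM in the 5 libraries against 5.73 to 9.87 CPM for Adgre1, which encodes F4/80, and 12.2 to 19 CPM for Itgam, which encodes CD11b. In the mast cell genes, RNA from more mast cells and more RNA per mast cell cannot be told apart in such bulk libraries. A gate for CD11b+ F4/80+ cells is not meant to collect mast cells, and which cells in the sort carried these transcripts was not tested.

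The RefSeq promoter windows (GRCm38.p6, 250 bases before to 50 after the start) of 3 of the proteases and of the IgE receptor chain gene Fcer1a are shown. GATA2, itself among the 10 genes, belongs to the factors that bind the letters GATA in mast cell genes. Whether it had a part in the differences between the groups was not tested. Capitals mark AGATAA or TGATAA on either strand. The windows lie at chr3:20242132-20242431 (Cpa3), chr14:56062261-56062560 (Mcpt4), chr14:55944626-55944925 (Cma1) and chr1:173227180-173227479 (Fcer1a), all on the minus strand, and are written 5′ to 3′ in the direction of the gene.
Cpa3: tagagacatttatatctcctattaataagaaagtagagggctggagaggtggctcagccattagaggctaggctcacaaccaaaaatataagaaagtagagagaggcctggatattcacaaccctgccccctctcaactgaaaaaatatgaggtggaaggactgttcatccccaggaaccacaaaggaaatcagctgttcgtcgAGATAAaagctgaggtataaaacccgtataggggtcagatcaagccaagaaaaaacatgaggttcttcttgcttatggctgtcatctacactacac
Mcpt4: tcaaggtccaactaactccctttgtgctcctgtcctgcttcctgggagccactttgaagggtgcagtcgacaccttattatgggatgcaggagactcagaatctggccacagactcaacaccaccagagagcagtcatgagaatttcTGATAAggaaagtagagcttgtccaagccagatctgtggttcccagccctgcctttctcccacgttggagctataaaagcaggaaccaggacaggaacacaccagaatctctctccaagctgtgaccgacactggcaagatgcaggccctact
Cma1: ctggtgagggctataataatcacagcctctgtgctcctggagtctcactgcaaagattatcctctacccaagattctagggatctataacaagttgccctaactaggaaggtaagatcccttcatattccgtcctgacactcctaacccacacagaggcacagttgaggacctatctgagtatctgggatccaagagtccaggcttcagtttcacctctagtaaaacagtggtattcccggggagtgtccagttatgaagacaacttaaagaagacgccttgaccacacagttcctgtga
Fcer1a: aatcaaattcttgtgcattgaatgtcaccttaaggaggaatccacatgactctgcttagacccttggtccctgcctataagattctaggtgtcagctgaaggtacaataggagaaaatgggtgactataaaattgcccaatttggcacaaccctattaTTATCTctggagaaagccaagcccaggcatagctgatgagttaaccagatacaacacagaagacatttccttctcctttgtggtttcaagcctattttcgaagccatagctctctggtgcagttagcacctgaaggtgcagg

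Windows were found for 8 of the 10 genes. AGATAA or TGATAA stood in those of 4 genes, Cpa3 (46 bases upstream of the start), Mcpt4 (103 bases upstream), Fcer1a (92 bases upstream, antisense) and Ms4a2 (at 3 places), and in 18.6% of all 32851 windows. AGATAA alone was in 11.2% of them and TGATAA alone in 9.05%. TATAAA was in the windows of Cpa3 (31 bases upstream, and antisense 242 bases upstream), Mcpt4 (32 bases upstream) and Fcer1a (125 bases upstream), against 13.6% of all windows. No match of a kind overlapped another in these windows. The windows of Cma1, Hdc, Kit and Gata2 held none of these letters on either strand, which says nothing about binding outside them.

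The 4 abundant proteases were each higher in both Treg-ablated libraries than in any control. Cpa3, which encodes the granule carboxypeptidase A3 (ENSMUSG00000001865, chromosome 3, 20215620 to 20242181, minus strand, GRCm38), gave 128 and 130 counts after ablation and 60, 91 and 45 in controls 1, 2 and 3. These were 8.07 and 9.81 CPM against 4.03, 4.56 and 3.14 CPM, or 8.94 ± 1.23 (SD, n = 2) against 3.91 ± 0.719 CPM (SD, n = 3). The log2 fold change was 1.17 (SE 0.175), the widest difference of the 4.

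Mcpt4 and Cma1 encode chymases, serine proteases that cleave after aromatic or, for the mouse product of Cma1, small aliphatic residues. Mcpt4 (ENSMUSG00000061068, chromosome 14, 56059744 to 56062310) had 9.52 and 9.58 CPM in the Treg-ablated libraries and 4.97, 6.11 and 3.83 CPM in the controls. Its log2 fold change was 0.92 (SE 0.174), from 151 and 127 counts against 74, 122 and 55. Control 2 was the highest and control 3 the lowest of the controls, an order that Cpa3, Cma1 and Tpsb2 shared.

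Cma1 (ENSMUSG00000022225, chromosome 14, 55941453 to 55944661) had 8.2 and 9.43 CPM after ablation against 4.77, 6.06 and 4.32 CPM, a log2 fold change of 0.78 (SE 0.165). Here too control 2 came nearest to the Treg-ablated libraries, without reaching them. Of the distinct stretches of 50 bases in the Mcpt4 transcripts 5.48% also occur in Cma2 or Mcpt9, and of those of Cma1 5.38% in the predicted gene Gm48934. Mcpt9 had no counts and Cma2 had 3 counts, in control 2; Gm48934 is not listed in the count tables.

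Tpsb2 encodes the main active tryptase of mouse connective tissue mast cells, a tetramer that cleaves after basic residues. It was the most abundant of the 5 proteases in every library (ENSMUSG00000033825, chromosome 17, 25366550 to 25368094), with 12.2 and 11.2 CPM in the Treg-ablated libraries and 7.19, 8.41 and 5.78 CPM in the controls. The log2 fold change was 0.70 (SE 0.153), the smallest of the 4 abundant proteases.

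The second tryptase gene, Tpsab1 (ENSMUSG00000024173, chromosome 17, 25343245 to 25345562), had few counts. C57BL/6 mice are known to carry a splice-site defect in this gene that prevents the enzyme from being made. Treg-ablated libraries held 17 and 14 counts of it and controls 10, 4 and 8, or 1.07 and 1.06 CPM against 0.672, 0.2 and 0.557 CPM. Its log2 fold change of 1.23 (SE 0.45) was 0.78 without control 2 and 1.58 without control 1. The ratio of Tpsb2 to Tpsab1 counts was 11.4 and 10.6 in the Treg-ablated libraries and 10.7, 42 and 10.4 in the controls, so the 4 counts of control 2 stood apart from an otherwise even ratio. No stretch of 50 bases was shared between the transcripts of either tryptase gene and any other gene.

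**Figure D1:**
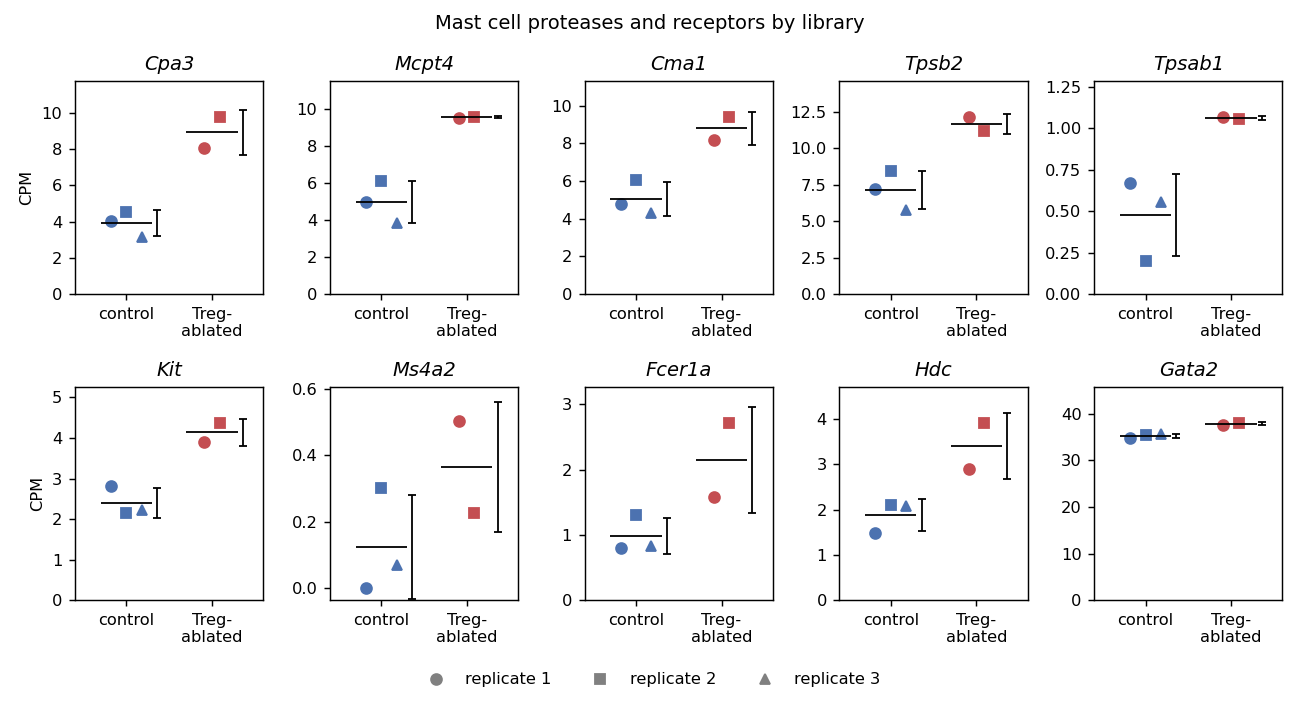
CPM of the 10 genes in each library (y axis, linear), controls in blue and Treg-ablated libraries in red, with symbols for the replicate number, black lines for group means and bars for SDs. The 2 Treg-ablated libraries lie above the 3 controls in each panel but that of Ms4a2, and for Gata2 the gap is narrow, 37.7 and 38.1 against 34.8 to 35.7 CPM.

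The 5 proteases differed more in their sum than in their proportions. They summed to 619 and 544 counts after ablation and to 322, 506 and 253 in the controls. Their summed level was 40 ± 1.42 CPM (SD, n = 2) against 21.5 ± 3.86 CPM (SD, n = 3), a ratio of 1.86. Tpsb2 made up 31.2% and 27.2% of these counts after ablation and 33.2%, 33.2% and 32.8% in the controls. Its share was lower in both Treg-ablated libraries than in the controls. The 95% Wilson intervals of all 5 libraries, which cover counting error only, overlapped (23.6% to 31.1% in Treg-ablated replicate 2, 28.3% to 38.6% in control 1). The interval of Treg-ablated replicate 1 (27.7% to 34.9%) contained the control shares and that of replicate 2 lay below them.

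Mcpt4 held between 21.7% and 24.4% and Cma1 between 21% and 24.5% of the protease counts, with no gap between the groups. The share of Cpa3 was 20.7% and 23.9% in the Treg-ablated libraries, above the 18.6%, 18% and 17.8% of the controls. As for Tpsb2, the intervals of all 5 libraries overlapped (20.5% to 27.7% in Treg-ablated replicate 2, 14.8% to 23.25% in control 1). The interval of Treg-ablated replicate 1 (17.7% to 24.1%) contained the control shares and that of replicate 2 lay above them. In Treg-ablated replicate 2 the ratio of Cpa3 to Tpsb2 counts was 0.878, against 0.663 in replicate 1 and 0.542 to 0.561 in the controls. Mcpt4 and Cma1 stayed near parity, with ratios from 0.887 to 1.16 over the 5 libraries.

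**Figure D2:**
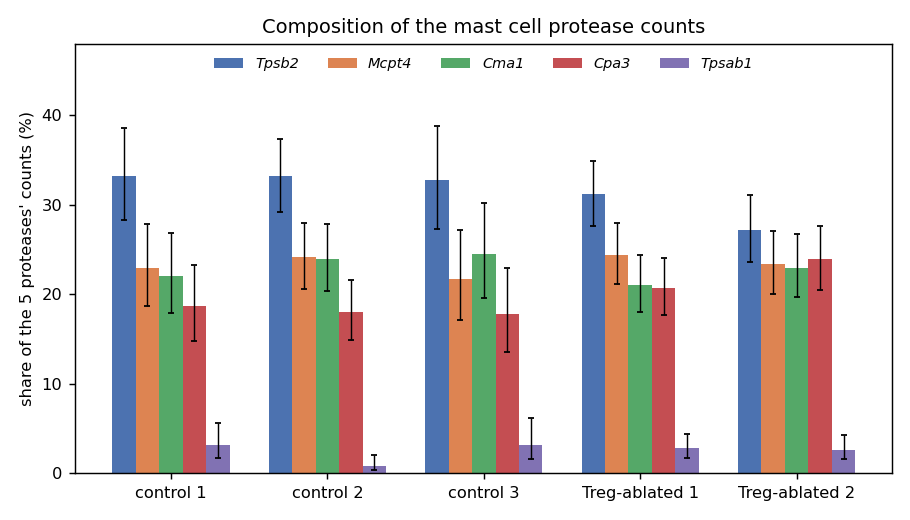
Share of each protease gene (y axis, percent) in the summed counts of the 5 proteases, per library, with 95% Wilson intervals as bars. Tpsb2 leads in each library with 27.2% to 33.2%, and Tpsab1 stays between 0.79% and 3.16%.

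The receptor genes had fewer counts. Kit, the receptor for stem cell factor, is also carried by haematopoietic progenitors and some innate lymphoid cells (ENSMUSG00000005672, chromosome 5, 75574916 to 75656722). It had 62 and 58 counts after ablation and 42, 43 and 32 in the controls, or 3.91 and 4.37 against 2.82, 2.15 and 2.23 CPM. The log2 fold change was 0.79 (SE 0.199), and unlike the 4 abundant proteases Kit was highest in control 1 among the controls.

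FcεRI is built from an α chain that binds IgE (Fcer1a), a β chain that amplifies the signal (Ms4a2) and γ chains shared with other Fc receptors (Fcer1g). Fcer1a (ENSMUSG00000005339, chromosome 1, 173221284 to 173227214), which basophils also express, had 1.58 and 2.72 CPM in the Treg-ablated libraries and 0.806, 1.3 and 0.836 CPM in the controls, from 25 and 36 against 12, 26 and 12 counts. The groups did not overlap, but Treg-ablated replicate 1 lay much closer to control 2 than to replicate 2. The log2 fold change of 1.06 (SE 0.335) became 0.64 without Treg-ablated replicate 2 and 1.42 without Treg-ablated replicate 1.

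Ms4a2 (ENSMUSG00000024680, chromosome 19, 11615523 to 11623719) was too low to enter the fit. It had 8 and 3 counts after ablation and 0, 6 and 1 in the controls, and the groups overlapped. The groups' pooled counts, 11 and 7, each over the group's pooled library size, had a ratio of 2.66, and the exact 95% interval for counting error alone ran from 0.94 to 8.08. Of the 50-base stretches of Ms4a2 transcripts 2.1% also occur in Ms4a4b, a neighbouring gene of T cells with 129 and 140 counts against 36, 51 and 40, and whether any of its reads were counted for Ms4a2 was not tested. The γ chain gene Fcer1g, which is not among the 10 genes and which macrophages and NK cells also express, did not pass the test (11.1 ± 2.83 CPM, n = 2, against 12.8 ± 1.29 CPM, n = 3, adjusted p = 0.3624, edgeR quasi-likelihood test), except when Treg-ablated replicate 1 was left out, where it was lower (log2 fold change −0.51).

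Hdc encodes histidine decarboxylase, the enzyme that makes histamine, in mast cells and basophils (ENSMUSG00000027360, chromosome 2, 126593667 to 126619299). It had 2.9 and 3.92 CPM in the Treg-ablated libraries and 1.48, 2.1 and 2.09 CPM in the controls, a log2 fold change of 0.83 (SE 0.239). Both Treg-ablated libraries lay above the controls, of which control 1 was the lowest.

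Gata2 stood apart from the other 9 genes. This zinc finger factor is needed for mast cell and basophil development, but endothelial cells, progenitors and some stromal cells use it too (ENSMUSG00000015053, chromosome 6, 88193891 to 88207032). It had 598 and 505 counts after ablation and 518, 706 and 512 in the controls, or 37.7 and 38.1 against 34.8, 35.4 and 35.7 CPM. The log2 fold change was 0.10 (SE 0.0729), and with a correction for GC content it was 0.24. While the summed CPM of the other 9 genes was 50.1 ± 3.08 against 26.9 ± 4.18 CPM, a ratio of 1.86, Gata2 had a fitted ratio of 1.07.

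Control levels per kilobase of exon could be ordered among the 10 genes. Tpsb2 (mean 6.59 CPM per kb), Gata2 (6.54), Mcpt4 (5.02) and Cma1 (4.7) were highest, and neighbours in this order overlapped in their control libraries except Gata2 and Mcpt4 (at least 6.45 against at most 6.17 CPM per kb). Cpa3 (2.58) and Fcer1a (0.983) followed, each apart from its neighbours. Hdc (0.296), Kit (0.27), Tpsab1 (0.228) and Ms4a2 (0.0439) were lowest, with control ranges that overlapped from each to the next. In the Treg-ablated libraries Tpsb2 (10.3 and 11.3), Mcpt4 (9.62 and 9.68) and Cma1 (7.63 and 8.78) all lay above Gata2 (6.98 and 7.06 CPM per kb).

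By edgeR's quasi-likelihood test over 14580 genes, 9 of the 10 genes entered the fit, and 7 of them had an adjusted p under 0.05, all higher after ablation. Tpsab1 and Gata2 did not pass. Over all genes tested, 13.5% passed as higher and 12.3% as lower. In all 9 the Treg-ablated libraries lay above the controls, as they did in 26.9% of all genes tested. With the replicate block, or with all genes of at least 1 count kept, 8 of the 10 genes passed. Since the genes were selected on this contrast, nothing is read from these counts. They rested on single libraries in part, with 4 genes past the threshold without Treg-ablated replicate 2, or without control 2, and likewise 4 with DESeq2.

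The other genes of the mast cell programme did not move in 1 direction. Of 66 further genes listed for granules, receptors, signalling, transcription and growth factors, 44 could be tested, of which 8 were higher, 10 were lower and 26 did not pass. Over all genes tested, 13.5% passed as higher and 12.3% as lower, the background also for the counts of each list below. The median log2 fold change of the 44 genes was 0.04, beside −0.01 over all genes tested. Most of these genes serve other leukocytes and stromal cells as well, so their levels are not specific to mast cells. Without control 2 the numbers were 4 higher and 2 lower, and without Treg-ablated replicate 2 they were 7 and 3.

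Other mast cell proteases were nearly absent. None of the 6 listed genes (Mcpt1, Mcpt2, Mcpt9, Cma2, Ctsg and Tpsg1) had enough counts to be tested, and their summed level was 0.226 to 0.806 CPM per library. Mcpt1 and Mcpt2, the proteases of mucosal mast cells, had 4 and 0 counts and 6 and 2 counts in the Treg-ablated libraries. The controls had 0 counts of Mcpt1 each and 11, 5 and 9 counts of Mcpt2.

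Among 10 granule and mediator genes tested 1 was higher and 3 were lower. Srgn, which encodes the serglycin core protein that holds proteases in granules of mast cells and many other leukocytes, had 39.4 ± 3.66 CPM after ablation against 25.9 ± 1.3 CPM and rose (log2 fold change 0.61, SE 0.0889, adjusted p = 0.001412, edgeR). Ndst2, an enzyme of heparin synthesis on which granule storage depends, fell by 0.37 on the log2 scale (SE 0.104, adjusted p = 0.02544, edgeR), which did not pass without control 2, without Treg-ablated replicate 1 or with the GC correction. Ptgs1, a cyclooxygenase gene, and Alox5ap, a leukotriene pathway gene, fell 1.19-fold and 1.45-fold (adjusted p = 0.01536 and 0.02103, edgeR), but neither passed without Treg-ablated replicate 2 or control 2, nor Ptgs1 with the replicate block.

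The tetraspanin gene Cd63 and the vesicle fusion gene Vamp8, both used in degranulation, did not pass, at log2 fold changes of −0.04 (SE 0.0988) and −0.21 (SE 0.0918). Vamp8 was past the threshold, lower, when Treg-ablated replicate 1 was left out (−0.37) and when genes with at least 1 count were kept (−0.23).

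Of 8 further receptor genes tested, Il1rl1 was the only one to pass. It encodes ST2, the receptor for IL-33 on mast cells, and stood at 869.9 ± 31.6 against 743.8 ± 22 CPM. Il1rl1 lay far above Tpsb2 (5.78 to 12.2 CPM) and Kit (2.15 to 4.37 CPM), and which cells carried its transcripts was not tested. Its log2 fold change was 0.23 (SE 0.0683, adjusted p = 0.0341, edgeR), and it did not pass when any 1 of the 5 libraries was left out, with the replicate block, or with the GC correction (0.09). Itgb7, an integrin gene, and Csf2rb, a shared cytokine receptor chain, did not pass (log2 fold changes 0.03, SE 0.0627, and −0.11, SE 0.123). Nor did Mrgprb1, with 18 and 18 counts after ablation against 16, 10 and 4 (log2 fold change 1.01, SE 0.449). Of the 8 genes 5 had a log2 fold change above 0, and the median was 0.13. Mrgprb2, the receptor through which basic peptides activate mouse connective tissue mast cells, had 8 and 4 counts after ablation against 3, 4 and 2 and was not tested.

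The signalling genes below FcεRI and KIT were split in direction: of 15 tested, 3 were higher and 6 lower. Lat, an adaptor used by mast cells and T cells alike, had 3.83 ± 0.241 CPM after ablation against 0.774 ± 0.174 CPM and rose (log2 fold change 2.26, SE 0.249, adjusted p = 0.0003905, edgeR). Fyn, a Src family kinase, rose 1.33-fold (adjusted p = 0.008125, edgeR), not passing without control 2. Stim1, the calcium sensor of the endoplasmic reticulum, fell 1.43-fold (adjusted p = 0.006671, edgeR), and Plcg1, a phospholipase C gene, 1.27-fold (adjusted p = 0.008667, edgeR). Plcg1 did not pass without Treg-ablated replicate 1 or control 2, nor with the GC correction. The kinase gene Lyn, at a log2 fold change of 0.14 (SE 0.0869), and the adaptor gene Gab2, at −0.12 (SE 0.099), did not pass.

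Of 7 transcription factor genes tested 2 were higher and 1 was lower. Bhlhe40, a helix-loop-helix repressor, had 146.9 ± 3.87 CPM after ablation against 108.5 ± 3.94 CPM and rose (log2 fold change 0.44, SE 0.0656, adjusted p = 0.00165, edgeR) and Runx1 rose 1.33-fold (adjusted p = 0.007684, edgeR), the latter not passing without control 2. Spi1, the myeloid factor PU.1, fell 1.48-fold (adjusted p = 0.01787, edgeR), but not past the threshold when Treg-ablated replicate 2 or control 2 was left out. Mitf, which drives Kit and protease genes in mast cells, had 10.9 ± 0.423 against 11.4 ± 1.37 CPM and a log2 fold change of −0.06 (SE 0.128) without passing, and Zeb2, a zinc finger factor, had 0.18 (SE 0.0817), passing only without Treg-ablated replicate 1 (0.28).

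Of the pathway's 4 growth factor and cytokine genes tested 1 was higher. Kitl, which encodes stem cell factor, had 117 ± 13.9 CPM after ablation (n = 2) and 113.5 ± 4.66 CPM in controls (n = 3), with a log2 fold change of 0.04 (SE 0.082) that did not pass. Il33, the ST2 ligand released from damaged stromal cells, stood at 167.2 ± 10.2 CPM against 129.7 ± 6.43 CPM and rose (log2 fold change 0.36, SE 0.0714, adjusted p = 0.005351, edgeR), and this call ended only with the GC correction and the replicate block together (0.22). The mast cell growth factors IL-3 and IL-9 had no counts of their genes in any library.

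**Figure D3:**
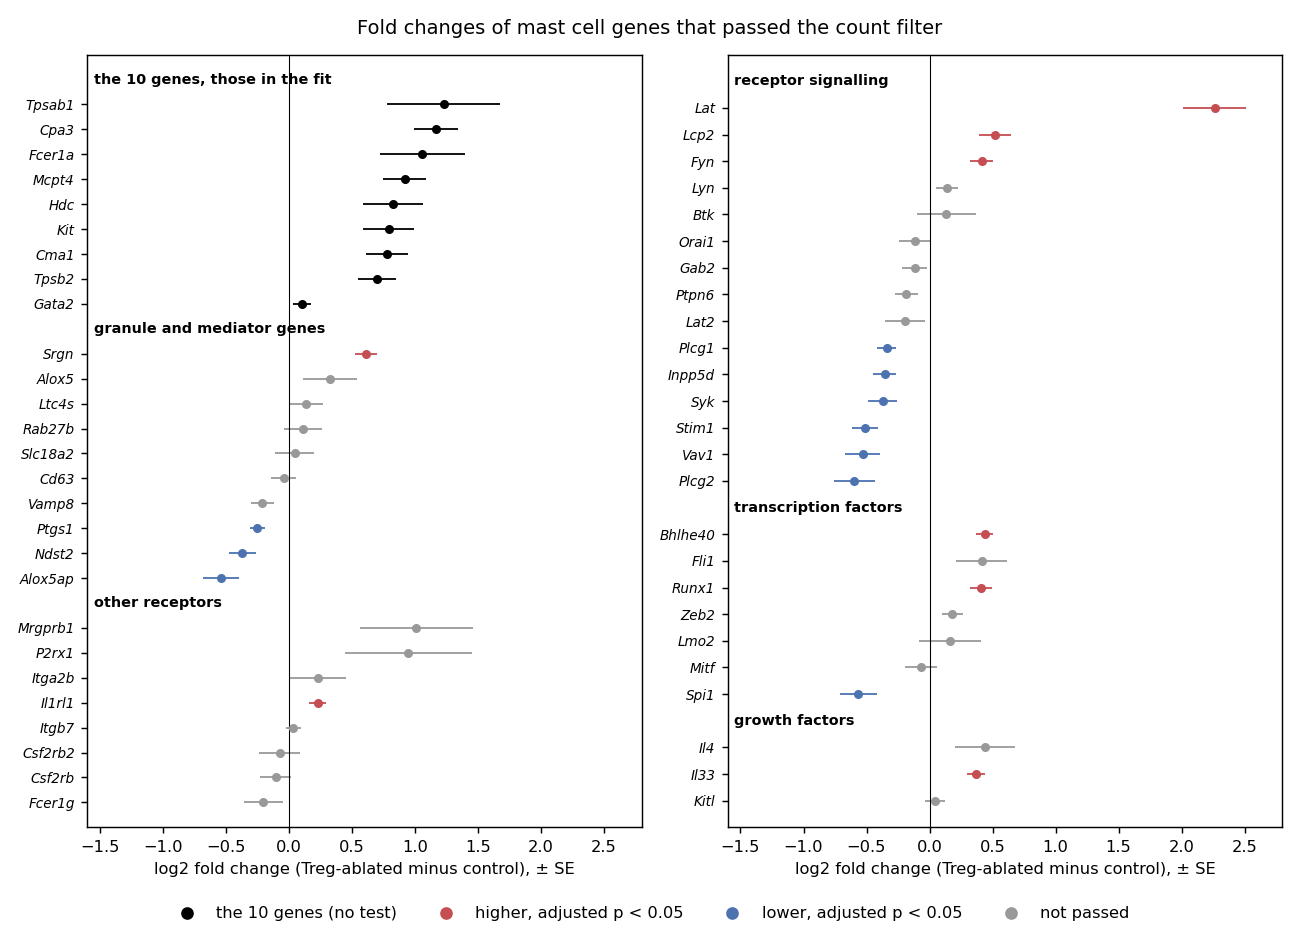
Log2 fold changes (x axis, Treg-ablated minus control) with SEs for the 9 of the 10 genes that entered the fit, in black, and for the further mast cell genes tested, all but 1 of the 44, by role, in red where higher, blue where lower and grey where not passed. The black points other than Gata2 lie between 0.70 and 1.23 and Gata2 lies at 0.10, whereas the further genes lie on both sides of 0.

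Fcer1a, Hdc and Gata2 are among the genes that basophils share with mast cells. The basophil protease gene Mcpt8 had 3.34 and 2.04 CPM in the Treg-ablated libraries and 3.9, 2.95 and 3.07 CPM in the controls, and the groups overlapped (log2 fold change −0.27, SE 0.245, adjusted p = 0.4575, edgeR). Prss34, another basophil protease, had at most 3 counts in a library. Of 7 basophil markers 5 were tested and none passed by edgeR, with 0 of them at an unadjusted p under 0.05, and Mcpt8, Il3ra and Ccr3 did not pass by DESeq2 or limma-voom either. Of the 5 tested, 4 had a log2 fold change above 0, and the median was 0.36, beside −0.01 over all genes tested. The summed level of the 7 markers was 25.3 and 26.7 CPM after ablation against 19.6 to 25.6 CPM. On average 17.3 and 15 CPM of it came from Il3ra, the IL-3 receptor α chain. Il3ra passed with the GC correction and the replicate block together (log2 fold change 0.44).

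Markers of other cell types differed between the groups as well, in either direction. Of 10 T cell markers 9 were higher, and their summed level was 47.8 and 51.4 CPM against 13.4 to 17.4 CPM. Cd3e, a chain of the T cell receptor complex, rose 2.84-fold (adjusted p = 0.0007515, edgeR). Of 10 macrophage markers tested 7 were lower, with sums of 119.1 and 132.5 against 205.3 to 217.3 CPM, and Adgre1 fell 1.67-fold (adjusted p = 0.002754, edgeR). What part these shifts had in the values of the mast cell genes was not tested.

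Eosinophil markers summed to 7.77 and 7.82 CPM after ablation and 4.88 to 6.41 CPM in the controls. Siglecf had a log2 fold change of 0.79 (SE 0.44) and did not pass, although it passed with the replicate block (1.28, or 1.32 with the GC correction as well), and Epx, the eosinophil peroxidase gene, had no counts. Neutrophil markers summed to 10.6 and 12.7 against 8.85 to 9.92 CPM, with Ly6g at 3 counts or fewer in each library and Retnlg as the 1 member higher of 4 tested (log2 fold change 0.60, SE 0.172, adjusted p = 0.02833, edgeR). That call ended with DESeq2, with the GC correction and without Treg-ablated replicate 1, control 1 or control 2. All of these sums lay above the controls in both Treg-ablated libraries, like the mast cell proteases, and their part was not tested either.

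Endothelial cells also express Gata2, and their markers were lower in 1 of 9 tested. Their sum was 30 and 33.4 CPM after ablation and 38.2 to 40.6 CPM in the controls. The defining genes Pecam1, at 0.19 (SE 0.163, log2 fold change), and Cdh5, at −0.28 (SE 0.207), did not pass, and the gene that fell was Cd34 (log2 fold change −1.27, SE 0.161, adjusted p = 0.000773, edgeR), which fibroblasts and mast cells also express.

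Connective tissue mast cells also live in fat, skin and muscle. The defining fat and skin markers Adipoq, Krt5 and Krt14 had at most 3 counts in a library. The adipocyte list overlapped in sum between the groups (40.3 and 43.5 against 39.3 to 47.3 CPM), and most of it was Pnpla2, a lipase gene that many tissues express, with 601 and 491 counts against 596, 706 and 587 (log2 fold change −0.05, SE 0.0855, not passed). Of 5 muscle genes tested 2 were lower, Acta1 and Tnnt3. Acta1 had only 6 and 5 counts after ablation against 20, 27 and 16, on average 0.378 against 1.27 CPM (adjusted p = 0.008094, edgeR). Tnnt3 fell 1.85-fold (adjusted p = 0.04123, edgeR), not passing without control 2 or control 3, nor with DESeq2, limma-voom, the replicate block or the GC correction. It did not pass without Treg-ablated replicate 1 or 2 either, where its log2 fold change of −0.886 became −1.105 and −0.719. Melanocyte markers, listed because melanocytes also use Kit and Mitf, summed to at most 0.905 CPM, and Dct, Tyr and Tyrp1 had no counts. Of 16 fibroblast markers 7 fell, among them Col1a1 (log2 fold change −0.63, SE 0.0707, adjusted p = 0.000419, edgeR), and 1 rose. Their sums overlapped between the groups, but most of each sum was Col3a1, which did not pass (log2 fold change 0.04, SE 0.109). Col3a1 had 8700 and 9381 CPM after ablation and 9293, 9556 and 7467 CPM in the controls.

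**Figure D4:**
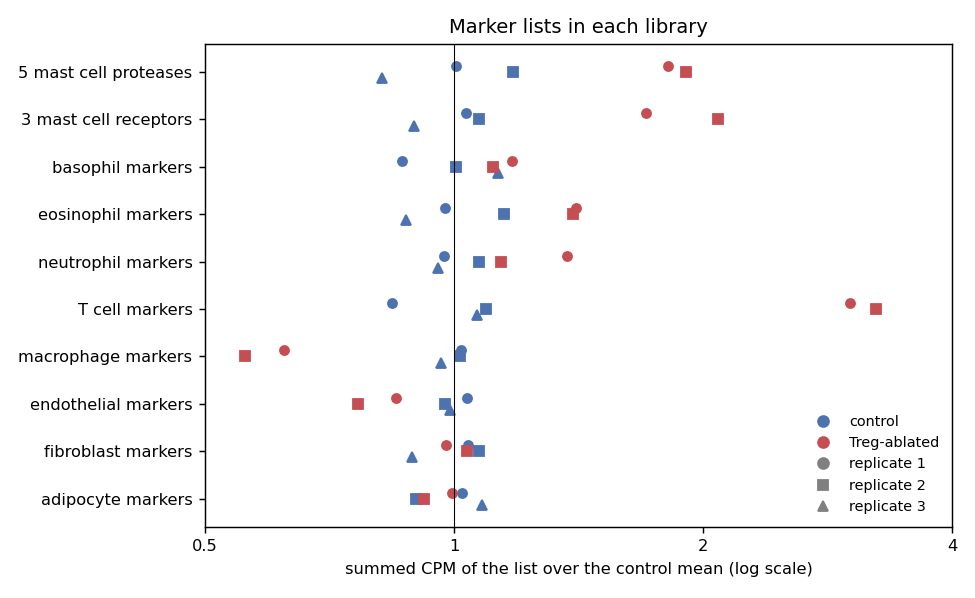
Summed CPM of each marker list in each library, divided by the mean of the 3 controls (x axis, log scale), controls in blue and Treg-ablated libraries in red. The protease sums of 39 and 41 CPM lie to the right of the control sums of 17.6 to 25.3 CPM, T cell sums lie farther right, macrophage sums lie to the left, and basophil and fibroblast sums overlap. Most of each fibroblast sum is Col3a1.

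Mcpt4 and Cma1 belong to a cluster of granule protease genes on chromosome 14 that also holds the granzymes of cytotoxic lymphocytes. Of 13 listed neighbours 6 were tested and 4 were higher. Gzmb (56258856 to 56262260, GRCm38) had a log2 fold change of 2.51 (SE 0.121), Gzmc 1.11 (SE 0.113), Gzmd 1.41 (SE 0.288) and Gzme 1.70 (SE 0.488), with adjusted p of 2.053e-06, 0.0002693, 0.006654 and 0.02782 by edgeR. Gzme did not pass without Treg-ablated replicate 2, control 1 or control 2. Gzmd, Gzme and Gzmf are close paralogs whose reads may be split. Mcpt8 (56082166 to 56085216), between Mcpt4 and these granzymes, did not pass as given above, and Gzmf did not pass (log2 fold change 0.66, SE 0.351) except with the replicate block (0.97).

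Patterns over the 5 libraries were compared with that of the summed 10 genes, by Euclidean distance between log2 CPM centred on their mean. The 13464 genes compared were other genes in the fit with a mean of at least 1 CPM and a count in every library. With predicted genes and pseudogenes left out, the nearest were Spata5l1 (distance 0.0369), Acyp1 (0.0657), Msantd2 (0.0784), Fam193b (0.0859), Fam110c (0.0901) and Ddx55 (0.0916). Gata2 gave 37.9 of the mean 88 CPM of that sum after ablation and 35.3 of 62.2 CPM in the controls. The 6 genes were 1.42-fold to 1.46-fold higher after ablation, a description, as they were picked for this pattern. Among those of the 66 further mast cell genes that were compared, Il33 came nearest, at rank 87 with predicted genes counted (distance 0.158).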

How the data were processed

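RNA-seq was analysed for 5 libraries, 2 Treg-ablated and 3 control, grouped by sample title. Per the file headers, the authors deposited whole-number fragment counts per gene made with featureCounts 1.6.2 on a filtered Ensembl 83 annotation of GRCm38. No strand option was set, although the labels name a stranded kit, so antisense reads are included. No exon of the 10 genes overlaps an exon of another listed gene. The submitters' processing notes also name Subread 1.6.2, Trimmomatic 0.33, FastQC 0.11.5 and DESeq2 1.16.1.

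Symbols were joined by Ensembl identifier. Genes kept by filterByExpr (14580) were fitted with TMM scaling in edgeR 4.0.16 (R 4.3.3, quasi-likelihood test), and p-values were adjusted over all of them (Benjamini-Hochberg, 0.05). The SE is |log2 fold change| over √F. CPM use TMM-scaled library sizes. Within groups, libraries differed by more than sampling noise (chi-square per degree of freedom 3.88 to 7.24).

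The 10 genes and the lists were chosen with earlier results of these data known. Besides the 10 genes, the text names from each list up to 4 genes that passed (smallest p) and up to 2 that did not (highest level), fixed markers, and the 6 nearest patterns. For the lists of other cell types only some of the genes so picked are named. Mcpt1, Mcpt2, Mcpt9, Cma2, Ctsg, Tpsg1, Mrgprb1, Ms4a4b, Gm48934, Il3, Il9, Dct, Tyr and Tyrp1 were named after their values were seen. As alternatives, scaling by RLE or by library size only, a filter of at least 1 count, DESeq2 1.42.0, limma-voom (limma 3.58.1), the replicate number as a block, a lowess offset on GC content (GENCODE M21 transcripts), both together, and leaving out each library were run. Leaving out a Treg-ablated library leaves 1, assumed to vary like the controls. Intervals cover counting error only. For 1 listed gene no value of its own is reported here.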

Additional observations from a re-analysis of the deposited data

How the results depend on the processing

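In 13 alternatives none of the 9 fitted genes of the 10 reversed its direction. Of 117 such values 108 moved by less than 1 SD between replicates and 9 moved farther, those of Tpsab1 and Fcer1a with single libraries left out, of Gata2 with other scaling, filter or GC content, and of Cpa3 with the GC offset and block together (log2 fold change 0.93). The number of the 10 genes past the threshold was 4 with DESeq2 and 4 to 6 with 1 control left out. It was 8 with the replicate block and 8 with the filter of at least 1 count. Of the 66 further mast cell genes, 4 to 8 were higher and 2 to 10 lower with 1 library left out, and 6 were lower with the GC offset. Over all genes, leaving out 1 library gave 812 to 1687 higher and 554 to 1538 lower, the lowest without control 2. With the replicate block 1296 were higher and 1116 lower, and with block and GC offset 1192 and 1061, and of the further mast cell genes 4 lower. Deviations of same-numbered libraries from their group means had r = −0.226 for number 1 and −0.0213 for number 2. The names of the deposited tables give the Treg-ablated libraries other numbers than their titles do, under which r was 0.0213 and −0.199. With 2 Treg-ablated libraries the deviations of each are the exact reverse of the other's, so r cannot decide whether the numbers mark pairs. As names and titles differ, the numbers are not taken as pairs, and the block, which follows the titles, is given only as an alternative. Among the named genes of other lists, 45 calls were lost and 13 gained over all alternatives, and 800 values kept their side of the threshold. Depth limits the genes with the fewest counts most, and Ms4a2, with 11 and 7 counts in the groups, did not pass the filter on low counts.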
